A study of Drosophila melanogaster with 20 samples.

Results

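Here 7 of the 20 arrays of the series, all of wing imaginal discs of Drosophila melanogaster, were compared by the group and replicate in their titles. They ask how tumors with EGFR and psqRNAi differed from those with EGFR alone at day 4, when the labels call both genotypes early-hyperplastic tumors. EP_EHT comprises 4 arrays of discs with EGFR and psqRNAi, and E_EHT comprises 3 arrays of discs with EGFR alone, replicates 2 to 4. A further E_EHT array, replicate 1, was set aside by the submitters after signs of technical problems and enters only as an alternative. Both genotypes carry EGFR, so its own effect is not part of any difference below, and discs without EGFR are not analysed here. Each sample pooled about 20 pairs of discs, and the labels call the samples biological replicates. The driver of the transgenes, the psqRNAi line, the sex of the larvae and the region of the disc that expressed EGFR are not given in the sources used here. Any other difference between the fly lines would go with psqRNAi and cannot be told apart from it. The same contrast at 12 hr, with 4 arrays of EGFR+psqRNAi (EP_Ctrl) and 4 of EGFR (E_Ctrl), and the day 11 arrays of EGFR+psqRNAi (EP_LNT, 4 arrays) served as references.

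The wing disc is a larval epithelial sac that forms the adult wing and dorsal thorax. EGFR is a receptor tyrosine kinase that signals through Ras and MAP kinase to promote growth and survival of disc cells. pipsqueak (psq) encodes a nuclear protein with a BTB domain, through which such proteins pair, and it binds GAGA-type DNA sequences, as does the GAGA factor encoded by Trl. RNA interference against psq is meant to lower its mRNA.

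All values are log2 expression levels as deposited, and a difference is EP_EHT minus E_EHT, so 1 unit is a factor of 2. Levels of the 13402 named genes ran from 2.76 to 13.98 on the 19 arrays used, and the medians of the day 4 arrays from 7.3 to 7.38. A gene is called changed at an adjusted p below 0.05 in limma, a linear model over all genes. No pair of arrays was a copy of another. Within EP_EHT, replicates 2 and 4 were the farthest apart, with a per-gene SD of the difference of 0.497, against 0.292 to 0.382 for the other pairs within a group. Pairs across the genotypes ran from 0.315, for EP_EHT replicate 4 with E_EHT replicate 3, to 0.499. The genotypes thus did not separate by this distance. The 10 markers of salivary gland, most of which encode glue proteins, had a mean of 10.06, 9.97, 10.5 and 7.32 on EP_EHT replicates 1 to 4 and 7.81, 7.07 and 10.7 on E_EHT replicates 2 to 4, so their level split both genotypes. None of the 10 passed the test. Markers of wing disc epithelium were present on every array, with list means of 9.48 to 10.26. In pooled tissue, fewer cells of a type and less RNA per cell cannot be told apart.

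With psqRNAi, 320 genes were higher and 105 lower at day 4, which is 3.17% of the genes tested (2.39% higher and 0.783% lower). Among the highest risers were small nucleolar RNAs of one family, the channel gene CG8916 and hairpin RNA genes. The deepest falls were those of the transporter gene Mrp4 and the antifungal peptide gene Drs. The changes were mostly small, since 313 of the 425 called genes differed by less than 1.5-fold, and only 30 rose and 11 fell by at least 2-fold. The arrays of the 2 genotypes did not overlap for 421 of the 425 called genes, as they did not for 1863 genes in all, 13.9% of those tested (8.32% higher and 5.58% lower). An unadjusted p below 0.05 was found for 2319 genes (17.3%).

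psq itself was lower. It stood at 10.71, 10.49, 10.69 and 10.93 on EP_EHT replicates 1 to 4 and at 11.12, 11.21 and 11.12 on E_EHT replicates 2 to 4. Every psqRNAi array lay below every EGFR array, and the fall was 1.36-fold (-0.45 ± 0.1 SE, limma adjusted p = 0.0163). The call was lost with E_EHT replicate 1 kept (-0.26, adjusted p = 0.375), without E_EHT replicate 3 (adjusted p = 0.0862) or 4 (adjusted p = 0.0566), and with only the 2 groups in the fit (adjusted p = 0.163). At 12 hr the difference was -0.09 ± 0.09 (adjusted p = 0.675), and the difference between both times did not pass the test (adjusted p = 0.204). Whether the probe set of psq overlaps the sequence aimed at by the RNAi is unknown, so these values are no measure of the knockdown. Egfr, the receptor gene, stood at 12.68, 12.39, 12.58 and 12.99 with psqRNAi and at 12.73, 12.84 and 12.79 without, and did not pass (-0.12 ± 0.11, adjusted p = 0.614). Of the 14 measured genes encoding BTB and GAGA-associated factors, psq was the 1 that fell and 0 rose. In that list lola, ab and ttk were not matched and so not tested. The list median was -0.16 against -0.01 over all genes. It was -0.03 with E_EHT replicate 1 kept, -0.1 without EP_EHT replicate 2 and -0.23 without EP_EHT replicate 4. On EP_EHT replicate 4 the list mean of 9.07 lay above the 8.88 to 9.05 of the E_EHT arrays. Trl, the GAGA factor gene, was at -0.29 ± 0.09 (adjusted p = 0.102).

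The steepest rise was that of snoRNA:Psi18S-525b, a box H/ACA small nucleolar RNA of the kind that guides pseudouridylation, the conversion of uridine to pseudouridine, in 18S ribosomal RNA. It stood at 8.95, 9.67, 8.88 and 8.04 on the EP_EHT arrays and at 3.22, 3.4 and 3.2 on the E_EHT arrays. E_EHT was near the lowest values of the table, where a level above background is not shown, so the rise of at least 48.9-fold (5.61 ± 0.26, adjusted p = 9.01e-10) is a lower bound. snoRNA:Psi18S-640g rose 13.2-fold (3.72 ± 0.25, adjusted p = 9.53e-08), from 6.53, 5.8 and 5.78 to 9.7, 10.41, 9.8 and 9.14. snoRNA:Psi18S-525d rose 7.34-fold (2.88 ± 0.21), snoRNA:Psi18S-640a at least 3.4-fold (1.76 ± 0.21), from a level of 3.2 to 3.55, and snoRNA:Psi18S-640b 1.4-fold (0.49 ± 0.09). These 5 of the 18 measured guides of that family rose and 0 fell. In the RefSeq gene order snoRNA:Psi18S-640a lies beside snoRNA:Psi18S-525b, and snoRNA:Psi18S-640b beside snoRNA:Psi18S-525d, while snoRNA:Psi18S-640g had no neighbour called in the same direction. Other copies of the family moved less, and the family ranged from -0.55 to 5.61 with a median of 0.48. Copies this similar can cross-hybridise, so the share of each copy in its value is uncertain. At 12 hr the same 4 with the largest rise, without snoRNA:Psi18S-640b, were called higher too, snoRNA:Psi18S-525b by 5.23 ± 0.24 and snoRNA:Psi18S-640g by 3.62 ± 0.23.

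CG8916, which encodes a predicted ligand-gated chloride channel of the GABA receptor type, was at 9.41, 9.25, 8.98 and 9.23 with psqRNAi and at 5.02, 5.46 and 5.41 without. Its arrays did not overlap, and it rose 15.2-fold (3.92 ± 0.33, adjusted p = 2.37e-06), after a rise of 3.63 ± 0.3 at 12 hr. tipE, an auxiliary subunit of the Para sodium channel, rose 2.58-fold at day 4 (1.36 ± 0.24, adjusted p = 0.00422) and by 1.5 ± 0.22 at 12 hr. Uros1, the heme pathway enzyme uroporphyrinogen III synthase, rose 2.5-fold (1.32 ± 0.18, adjusted p = 0.000346). CG14715 was measured with the smallest standard error of the large rises. It stood at 11.05, 11.16, 11.05 and 10.89 against 9.71, 9.7 and 9.77, a 2.48-fold rise (1.31 ± 0.06, adjusted p = 9.01e-10). CG12560 rose 3.65-fold, CG33255 3.47-fold and CG15237 1.96-fold, and each of these 3 also passed at 12 hr, with log2 fold changes of 1.61, 0.84 and 0.73.

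All 3 measured hairpin RNA genes rose. hpRNA genes give long self-complementary transcripts that can be cut into small interfering RNAs in the fly. hpRNA:CR32207 stood at 8.61, 8.94, 8.65 and 8.52 with psqRNAi and at 6.17, 6.33 and 6.39 without, and rose 5.21-fold (2.38 ± 0.12, adjusted p = 9.01e-10). Its neighbour hpRNA:CR33940 rose 2.48-fold (1.31 ± 0.18, adjusted p = 0.000387) and hpRNA:CR32205 1.78-fold (0.84 ± 0.18, adjusted p = 0.0203), the last call lost without EP_EHT replicate 1 or any 1 of the E_EHT arrays (adjusted p up to 0.0899). Similar copies lie beside one another there, so these values are not independent. At 12 hr hpRNA:CR32207 was higher by 1.35 ± 0.11. Its further rise at day 4, 1.03 ± 0.16, had the lowest adjusted p (0.0707) of any gene for the difference between the times.

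**Figure D1:**
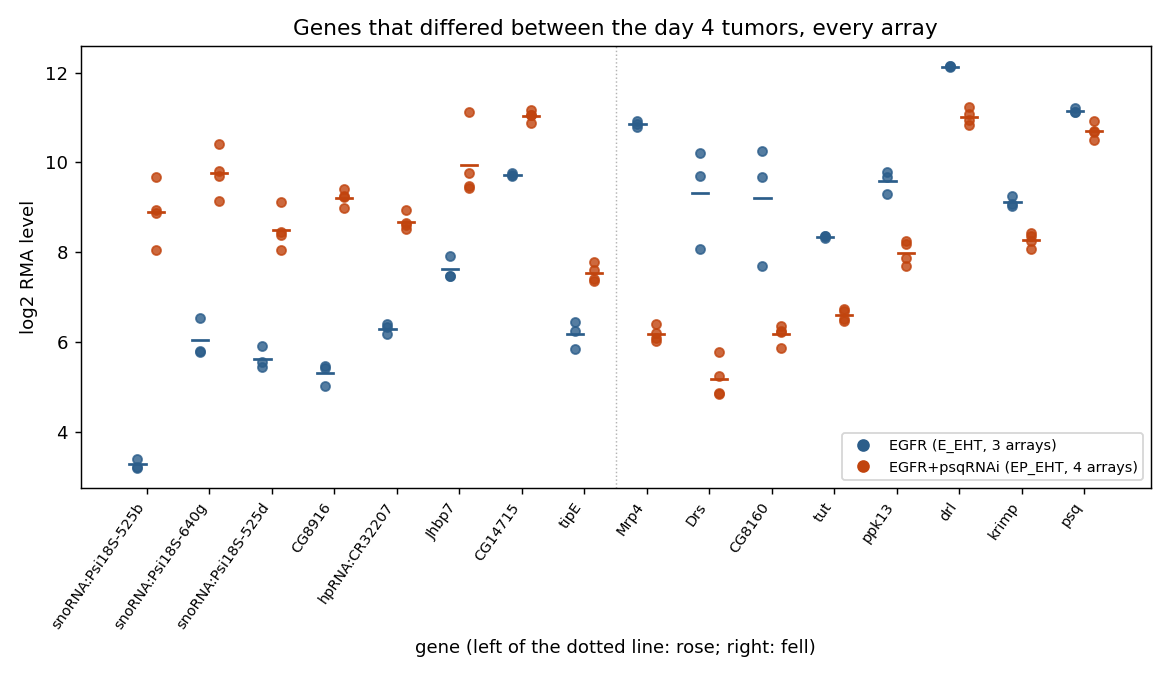
Log2 RMA level of 16 named genes on every day 4 array, blue for EGFR (3 arrays) and orange for EGFR+psqRNAi (4 arrays), with horizontal bars at the group means. The genotypes do not overlap for any gene shown; Drs and CG8160 spread widely among the EGFR arrays.

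Other risers passed the test at day 4 and not at 12 hr. Jhbp7, of the juvenile hormone binding protein family, was at 9.47, 11.13, 9.77 and 9.43 with psqRNAi and at 7.91, 7.46 and 7.48 without, a 5.05-fold rise (2.34 ± 0.44, adjusted p = 0.0077). Its highest value was on EP_EHT replicate 2, and at 12 hr its difference was 0.25 ± 0.41 (adjusted p = 0.833). The difference between the times did not pass (adjusted p = 0.15). CG43103 rose 3.06-fold and CG11400 3.02-fold. nAChRbeta3, a nicotinic acetylcholine receptor subunit, rose 2.13-fold (1.09 ± 0.22, adjusted p = 0.012), a call lost without E_EHT replicate 3 (adjusted p = 0.0576) or 4 (adjusted p = 0.0894). Jhbp7 was the 1 of 22 juvenile hormone genes that passed, and their median was -0.03. For these genes the 4 EGFR+psqRNAi arrays at day 11 averaged 11.32 for Jhbp7, 9.83 for CG43103 and 11.0 for CG11400.

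Hsp70Bbb, a gene of the inducible Hsp70 chaperones, stood at 11.01, 9.8, 9.58 and 10.63 against 8.03, 7.64 and 8.41, which is 4.69-fold higher (2.23 ± 0.55, adjusted p = 0.036). The Hsp70 copies are near-identical, and the call held under 10 of 18 alternatives. It was lost without EP_EHT replicate 1 or 2 and without any 1 of the E_EHT arrays, with adjusted p from 0.0552 to 0.149. At 12 hr both genotypes were high, with means of 10.31 and 10.07. Hsp70Ba, the other copy measured, was at 0.97 ± 0.49 (adjusted p = 0.332). Hsc70-5, a mitochondrial Hsp70, rose 1.17-fold, and these 2 were all that rose among 19 heat shock genes, with 0 falls. The call of Hsc70-5 was lost without the same 5 arrays in turn as that of Hsp70Bbb (adjusted p up to 0.152).

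Mrp4, an ABC transporter gene, stood at 6.09, 6.41, 6.2 and 6.02 with psqRNAi and at 10.8, 10.93 and 10.85 without. It was 25.6-fold lower (-4.68 ± 0.12, adjusted p = 1.58e-13) at day 4, and lower by 4.86 ± 0.11 on the log2 scale at 12 hr. Day 11 arrays averaged 6.75. MRP, a second of the 8 ABC transporter genes measured, was 1.31-fold lower (-0.39 ± 0.1, adjusted p = 0.0373), a call lost without any 1 array other than EP_EHT replicate 4 (adjusted p up to 0.146), and 0 of them rose. drl, which encodes a Ryk-family receptor of Wnt5, stood at 11.07, 10.83, 10.94 and 11.23 against 12.12, 12.15 and 12.14, and fell by 1.12 ± 0.1 (adjusted p = 6.51e-06), after a fall of 0.75 ± 0.09 at 12 hr. tut, an RNA-binding partner of the germline factor Bam, fell by 1.74 ± 0.14, and dtr by 1.36 ± 0.15.

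Of 3 neighbouring genes, all fell: ppk13, a DEG/ENaC channel gene, by 1.6 ± 0.19 (adjusted p = 0.000117), CG33509 by 1.5 ± 0.24 and CG33510 by a log2 fold change of -0.37. ppk13 was at 7.86, 8.18, 8.24 and 7.69 against 9.78, 9.68 and 9.3. It was called lower at 12 hr too, when 2 of these 3 neighbours were called. Another DEG/ENaC gene, ppk29, rose 1.33-fold, and 28 of the 30 measured did not pass. krimp, a Tudor protein gene of the piRNA pathway, which silences transposons in the germline, fell by 0.85 ± 0.12 (adjusted p = 0.000696). del of the same list fell by 0.34 ± 0.09 (adjusted p = 0.042), with 0 rises among 18. Of krimp and del, 1 was called lower at 12 hr too. Among serpins, protease inhibitors, Spn47C fell by 0.89 ± 0.23, while Spn28Dc and Spn88Ea rose 1.3-fold and 1.2-fold. Of these serpins, 2 were called in the same direction at 12 hr. Of 196 genes named as microRNA precursors, 0 rose and 5 fell (2.55%, against 0.783% of all genes). That group was chosen after its values were seen. At 12 hr 2 of its genes were called, both lower, and both fell at day 4 too. mir-2a-1 fell by 0.8 ± 0.11 (adjusted p = 0.000485), mir-2a-2 by 0.59 ± 0.11 and mir-2b-2 by 1.08 ± 0.28. mir-4969 fell by 0.76 ± 0.17 and mir-2497 by 0.68 ± 0.15, the last at levels of 3.04 to 4.18. The call of mir-2b-2 was lost without EP_EHT replicate 1 or 2 and without any 1 of the E_EHT arrays (adjusted p up to 0.187), that of mir-4969 without EP_EHT replicate 1 or 2 or E_EHT replicate 3 or 4 (up to 0.103), and that of mir-2497 without EP_EHT replicate 2 or E_EHT replicate 2 or 3 (up to 0.129). With E_EHT replicate 1 kept, 1 of the 5 passed, mir-2a-1, as it did with only the 2 groups compared. Of the genes above, del, ppk29, Spn47C, Spn88Ea and CG33510 each lost the call without any 1 of 4 or 5 arrays, with adjusted p up to 0.173. The miR-2 precursors named lie in an intron of spi, which encodes an EGFR ligand, and spi was at -0.2 ± 0.06 (adjusted p = 0.0975).

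Few innate immunity genes passed the test. Drs, the antifungal peptide drosomycin, stood at 4.87, 5.24, 5.78 and 4.83 with psqRNAi and at 10.21, 8.07 and 9.69 without. It was 17.6-fold lower (-4.14 ± 0.73, adjusted p = 0.0045), while at 12 hr it was at 5.39 and 5.83 in the 2 genotypes. CG8160 followed the same arrays, at 6.23, 6.24, 6.35 and 5.86 against 10.26, 7.69 and 9.67 (8.2-fold lower, adjusted p = 0.0254), but that call was lost without EP_EHT replicate 1 or 2 and without E_EHT replicate 2 or 4, with adjusted p from 0.0566 to 0.117. Of 29 antimicrobial and immune-induced peptide genes, Drs was the 1 that fell and 0 rose. In that list AttA, AttC, CecA1 and DptA were not matched and so not tested. Mtk, another antifungal peptide gene, was at 5.7 to 6.16 with psqRNAi and at 11.26, 7.42 and 6.76 without (-2.6 ± 0.7, adjusted p = 0.0517). Among Toll and IMD genes, Dif, a Toll pathway NF-kB factor, fell by 0.59 ± 0.12 (adjusted p = 0.0102), with adjusted p of 0.0613 and 0.0579 without E_EHT replicates 2 and 3. Fadd, the death-domain adaptor of the IMD pathway, rose 1.64-fold (0.71 ± 0.07, adjusted p = 2.11e-05), as it had at 12 hr (0.59 ± 0.07). grass, a protease of the Toll cascade, rose 1.48-fold (adjusted p = 0.0346), a call lost without EP_EHT replicate 1 or 2 or E_EHT replicate 3 or 4 (up to 0.166). Haemocyte markers averaged 8.12 to 8.68 with psqRNAi and 8.08 to 8.63 without, and fat body markers 9.71 to 10.28 and 10.1 to 10.48. None of the 15 and 7 passed, and their part in the immune genes was not tested.

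Of the 47 gene lists, small nucleolar RNA genes had the most risers by number. Of 214 measured, 37 rose and 2 fell (17.3% rose against 2.39% of all genes), with a median of 0.21. Outside the snoRNA:Psi18S-525 and snoRNA:Psi18S-640 family, 32 of 196 rose (16.3%), 2 fell and the median was 0.19. Among those 196, 15 of 81 pseudouridylation guides and 5 of 59 guides of ribose methylation rose. snoRNA:Psi28S-3305b rose 2.14-fold (1.09 ± 0.1, adjusted p = 3.94e-06), from 9.39, 9.58 and 9.47 to 10.53, 10.8, 10.51 and 10.45. It lies between snoRNA:Psi28S-3405c and snoRNA:Psi28S-3405d, which rose 1.3-fold and 1.57-fold. snoRNA:Me28S-G2703c, which guides methylation of 28S ribosomal RNA, rose 2.26-fold, and snoRNA:U3:9B, the U3 RNA needed to process the ribosomal RNA precursor, rose 1.72-fold (0.78 ± 0.2, adjusted p = 0.0446). The 2 that fell were snoRNA:Me28S-G3113a (-0.6 ± 0.15) and snoRNA:Psi28S-3305c (-0.4 ± 0.11). At 12 hr the list median was -0.1, with 6 higher and 11 lower, and all 6 that were higher rose at day 4 too. Among 18 genes named as snRNAs, a group chosen after its values were seen, snRNA:U11 rose 1.81-fold, snRNA:U5:63BC 1.3-fold and snRNA:U6atac 1.21-fold, and 0 fell. Without 1 array, however, the count of risers was 0 in 5 of 7 fits, 1 without E_EHT replicate 2 and 4 without EP_EHT replicate 4. The calls of snoRNA:U3:9B, snoRNA:Me28S-G3113a and snoRNA:Psi28S-3305c were lost without 6, 4 and 5 of the arrays in turn (adjusted p up to 0.163, 0.197 and 0.193).

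Mitochondrial ribosomal protein genes, which encode the ribosome that translates mitochondrial mRNAs, had 9 of 71 members that rose (12.7%) and 0 that fell, with a median of 0.2. Small-subunit genes gave 7 of those 9, out of 25, and large-subunit genes 2, out of 46. mRpL28 was at 8.61, 8.78, 8.43 and 8.5 with psqRNAi and at 7.97, 7.9 and 7.88 without, a 1.58-fold rise (0.66 ± 0.12, adjusted p = 0.00444). mRpS35 rose 1.53-fold (0.61 ± 0.1), mRpS34 1.45-fold (0.53 ± 0.12) and mRpS29 1.42-fold (0.5 ± 0.06, adjusted p = 9.41e-05). At 12 hr the list had 0 rises and 6 falls and a median of -0.15. The median difference between the times was 0.36, but no member passed the test of that difference. Of 94 genes of the respiratory chain and ATP synthase, 3 rose and 1 fell, with a median of 0.15. The share that rose, 3.19%, was near the 2.39% of all genes. ND-15 of complex I rose 1.51-fold, its assembly factor CIA30 1.25-fold and the ATP synthase subunit ATPsynG 1.5-fold, while COX4L fell by 0.43 ± 0.11 at levels of 4.14 to 4.83. Without EP_EHT replicate 4, 24 of the 94 rose, and without any 1 of the other 6 arrays 1 to 3. The calls of CIA30, COX4L and ATPsynG were lost without 6, 5 and 3 of the 7 arrays in turn (adjusted p up to 0.168, 0.217 and 0.0847), and that of mRpS34 without 5 (up to 0.0979). None of 13 TCA cycle genes passed.

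Of 40 proteasome genes, 7 rose (17.5%, against 2.39% of all genes) and 0 fell, with a median of 0.16. They encode the catalytic-core subunits Prosalpha4, Prosalpha5, Prosbeta3 and Prosbeta6 and the regulatory-particle proteins Rpn1, Rpn11 and Rpt3R. Prosalpha5 rose 1.48-fold (0.56 ± 0.1, adjusted p = 0.00551), from 8.49, 8.19 and 8.39 to 9.0, 9.21, 8.78 and 8.7. Rpn11, the deubiquitinase of the lid, rose 1.2-fold. Every EP_EHT array lay above every E_EHT array in the list mean, at 8.83 to 8.94 against 8.73 to 8.74. The same held for the ribosome biogenesis and Myc list (9.52 to 9.65 against 9.4 to 9.49) and heat shock proteins (8.99 to 9.33 against 8.79 to 8.89). The calls of Prosalpha4, Prosbeta3, Prosbeta6, Rpn1, Rpn11 and Rpt3R were each lost in fits without 1 array (adjusted p up to 0.147). The ribosome biogenesis and Myc list, in which Myc itself was not matched and so not tested, had 4 risers of 27 (14.8%) and 0 falls. The risers were Nop56, nclb, Tif-IA and eIF6, at 1.15- to 1.32-fold. That count was 0 without EP_EHT replicate 1, without E_EHT replicate 4 and with only the 2 groups compared, 1 without EP_EHT replicate 2 or E_EHT replicate 3, 2 without E_EHT replicate 2, 3 without EP_EHT replicate 3 and 6 without EP_EHT replicate 4. Aminoacyl-tRNA synthetase genes, whose products charge tRNAs, had 3 risers of 28 (10.7%). These were AsnRS 1.34-fold (0.42 ± 0.07, adjusted p = 0.00461), IleRS 1.2-fold and TyrRS 1.17-fold. Their count ran from 1 without E_EHT replicate 2 or 4 to 5 without EP_EHT replicate 4. Of 42 cytosolic ribosomal protein genes, 2 rose (4.76%), RpLP0-like 1.4-fold and RpS21 1.29-fold, 0 fell, and the median was 0.1. However, 7 rose without EP_EHT replicate 4, 1 without EP_EHT replicate 3 and 0 without any 1 of the other 5 arrays.

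**Figure D2:**
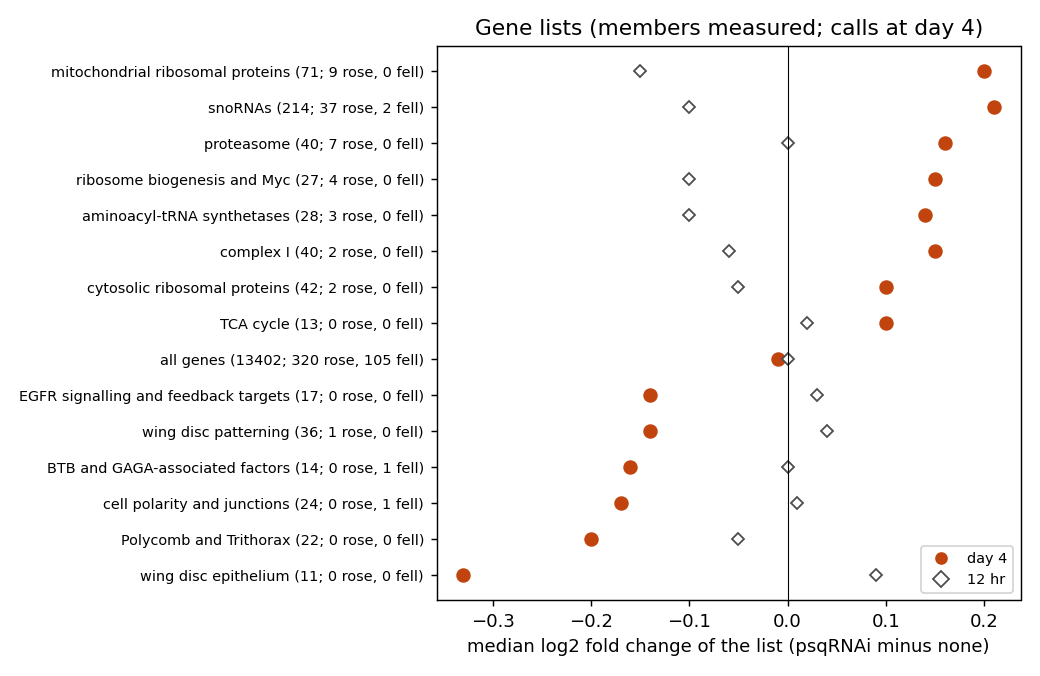
Median log2 fold change of 14 of the 47 gene lists and of all genes, EGFR+psqRNAi minus EGFR, at day 4 (filled circles) and 12 hr (open diamonds), with the members measured and called at day 4 in the labels. Mitochondrial ribosomal proteins sit at 0.2 at day 4 and -0.15 at 12 hr, and wing disc epithelium markers at -0.33 and 0.09. Lists not shown include hairpin RNAs (1.31 at day 4), salivary gland (0.99), glutathione transferases (0.16) and fat body (-0.3).

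Several lists had a median below 0 and few or no calls. All 11 wing disc epithelium markers were lower in the mean, with a median of -0.33, and 0 passed. Fat body markers had a similar median, -0.3. salm, a wing patterning zinc finger gene, was at -0.41 ± 0.11 (adjusted p = 0.056) and nub, a POU factor of the wing pouch, at -0.56 ± 0.32 (adjusted p = 0.386). In the wing disc patterning list of 36 genes, ac, a proneural gene that starts bristle formation, rose 1.56-fold (0.64 ± 0.13, adjusted p = 0.00996, and 0.0612 without E_EHT replicate 2), 0 fell and the median was -0.14. Among 22 Polycomb and Trithorax genes 0 passed and 19 were below 0 (median -0.2), with ph-p, ph-d, pho and ash1 not tested. Among 17 EGFR signalling and feedback targets 0 passed and 15 were below 0 (median -0.14). In that list vn, rho, ru, pnt, Ras85D, Raf and rl were not matched to a measured gene. The pathway was therefore only partly covered. Of 24 cell polarity and junction genes, sinu, a claudin gene, fell by 0.22 ± 0.06 (adjusted p = 0.0371), 0 rose and 21 were below 0 (median -0.17). The Notch and E(spl) list had a median of 0.06, with 8 of 11 above 0. Over all genes 6968 of 13402 were below 0. Without EP_EHT replicate 4, 5 genes fell in each of the Polycomb and Trithorax, patterning and polarity lists, 2 EGFR targets fell and 1 wing disc epithelium marker fell, and 1 Polycomb and Trithorax gene and 1 patterning gene rose. With E_EHT replicate 1 kept, the medians were -0.14 for wing disc epithelium, -0.06 for Polycomb and Trithorax, -0.05 for polarity, -0.03 for patterning and -0.01 for EGFR targets. Without EP_EHT replicate 2 the same 5 medians were -0.16, -0.12, -0.12, -0.06 and -0.06. The calls of ac and sinu were each lost in fits without 1 array, sinu in 6 of the 7 (adjusted p up to 0.139).

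These shifts moved with single arrays. The wing disc epithelium list averaged 9.98, 9.48, 9.85 and 10.26 on EP_EHT replicates 1 to 4 and 10.11, 10.23 and 10.21 on E_EHT replicates 2 to 4, lowest on EP_EHT replicate 2 and highest on EP_EHT replicate 4. Mitochondrial ribosomal protein genes ran the other way, at 9.05, 9.2, 8.9 and 8.8 against 8.85, 8.8 and 8.72, and snoRNA genes at 9.71, 9.97, 9.69 and 9.41 against 9.36, 9.5 and 9.42. On EP_EHT replicate 4 both lists lay within the range of the E_EHT arrays. Protein-coding genes over 10 kb long deviated from their mean by -0.06, -0.2, -0.03 and 0.12 on the EP_EHT arrays and by 0.03, 0.06 and 0.08 on the E_EHT arrays, with the same 2 arrays at the ends. The median gene length was 1.47 kb for the 269 protein-coding genes that rose, 3.02 kb for the 94 that fell and 2.17 kb for all 12367. Of protein-coding genes of 1 to 2 kb 3.63% rose, and of those over 10 kb 0.463%. The part of gene length and of these arrays in the list medians was not tested. Without EP_EHT replicate 4, 19 mitochondrial ribosomal protein genes, 78 snoRNA genes and 15 proteasome genes rose, and without EP_EHT replicate 2, 4, 26 and 4. The lowest counts without 1 array were 3 mitochondrial ribosomal protein genes and 18 snoRNA genes, both without E_EHT replicate 4, and 1 proteasome gene, without E_EHT replicate 3. With only the 2 groups compared, 2, 7 and 0 rose.

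**Figure D3:**
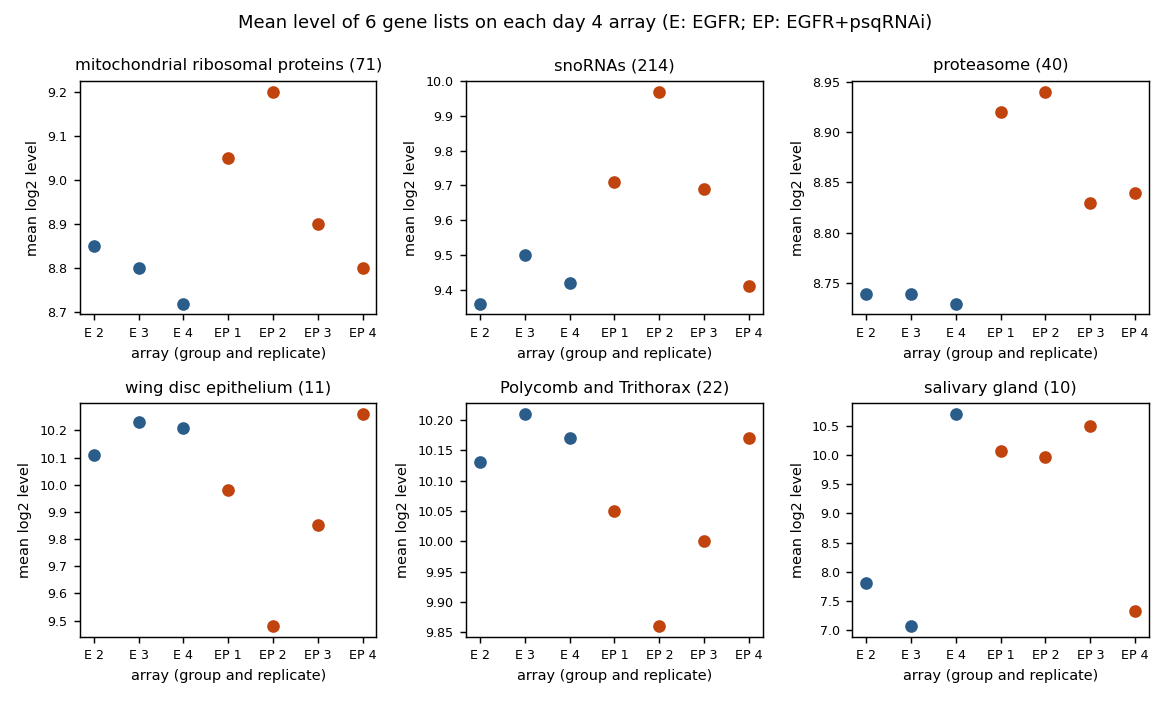
Mean log2 level of 6 gene lists on each of the 7 day 4 arrays, blue for EGFR and orange for EGFR+psqRNAi, with the members measured in each title; the vertical scales differ. EP_EHT replicate 2 is highest for mitochondrial ribosomal proteins (9.2) and lowest for wing disc epithelium (9.48), and the salivary gland list splits both genotypes.

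Other signalling and cell-state lists showed few calls. bsk, the Jun kinase gene, rose 1.25-fold (0.32 ± 0.06, adjusted p = 0.0063). It was the 1 riser among 21 JNK and stress genes (4.76%, against 2.39% of all genes), with 0 falls. borr, which encodes borealin of the chromosomal passenger complex, rose 1.5-fold (0.59 ± 0.07, adjusted p = 0.000132), from 9.64, 9.7 and 9.61 to 10.3, 10.32, 10.1 and 10.24. It was the 1 of 30 cell cycle and DNA replication genes that passed (3.33%), and it was also higher at 12 hr (0.34 ± 0.07). Of 35 glutathione transferase genes, 0 rose and 1 fell (2.86%, against 0.783% of all genes). The faller was GstE1, by 0.56 ± 0.11 (adjusted p = 0.0128, and 0.0692 without E_EHT replicate 3), after a larger difference of -0.91 ± 0.11 at 12 hr. None passed among 11 apoptosis, 15 glycolysis and hypoxia, 17 Hippo and Fat, 11 Notch, 8 JAK/STAT, 18 ecdysone response and 80 cytochrome P450 genes. Entries not matched, and so not tested, included rpr, hid, Diap1 and Drice (apoptosis) and N, Dl, Ser and Su(H) (Notch). Also not tested were upd3 and Socs36E (JAK/STAT), Ldh, PyK and Gapdh2 (glycolysis), ft, d and sd (Hippo) and Eip74EF and Eip75B (ecdysone). In the JNK and cell cycle lists, Mmp1, stg, CycA and Cdk1 were not tested. Among markers of other cell types, elav of the 12 neuron and glia genes fell by 0.35 ± 0.09, Amy-p of the 15 gut genes rose 1.37-fold, verm of the 8 trachea genes and of the 108 cuticle genes rose 1.22-fold, the calls of elav and verm being lost without any 1 of 5 and 4 arrays (adjusted p up to 0.193 and 0.147), and none passed among 12 muscle and myoblast and 10 sex and germline genes. y, the yellow body colour gene, often used as a selectable marker in fly lines, rose 1.53-fold (0.61 ± 0.12, adjusted p = 0.00763, and 0.0571 without E_EHT replicate 3). It was called higher at 12 hr too.

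Some called genes were neighbours. In the RefSeq gene order, 64 of the 833 places beside the 417 called genes with a position held a gene called in the same direction (7.68%, against 3.17% of all genes called in either direction). They formed 28 runs of 60 genes, of which 4 runs had at least 3 genes: CG33510, CG33509 and ppk13, which fell, and Tif-IA, Marf1 and snoRNA:Psi28S-2996, then CG11980, Prosbeta3 and Iru, then snoRNA:Psi28S-3405c, snoRNA:Psi28S-3305b and snoRNA:Psi28S-3405d, which rose. Small nucleolar RNAs that lie within another gene share its transcript, so neighbours need not be separate events.

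The comparison at 12 hr used other arrays, 4 of EGFR+psqRNAi and 4 of EGFR. There 89 genes were higher (0.664%) and 236 lower (1.76%), 325 in all (2.43%), and 94 genes were called at both times in the same direction, 48 higher and 46 lower, with 0 in opposite directions. That is 22.1% of the day 4 calls and 28.9% of those at 12 hr. Of the genes that rose at day 4, 68.8% had the same sign at 12 hr, and of those that fell 92.4%. In the direct test of the difference between the times, 0 genes passed in limma, and 2177 had an unadjusted p below 0.05 (16.2%). That count was 345 without EP_EHT replicate 4 and 139 with array weights. A gene called at 1 time and not the other is therefore not shown to differ between them.

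**Figure D4:**
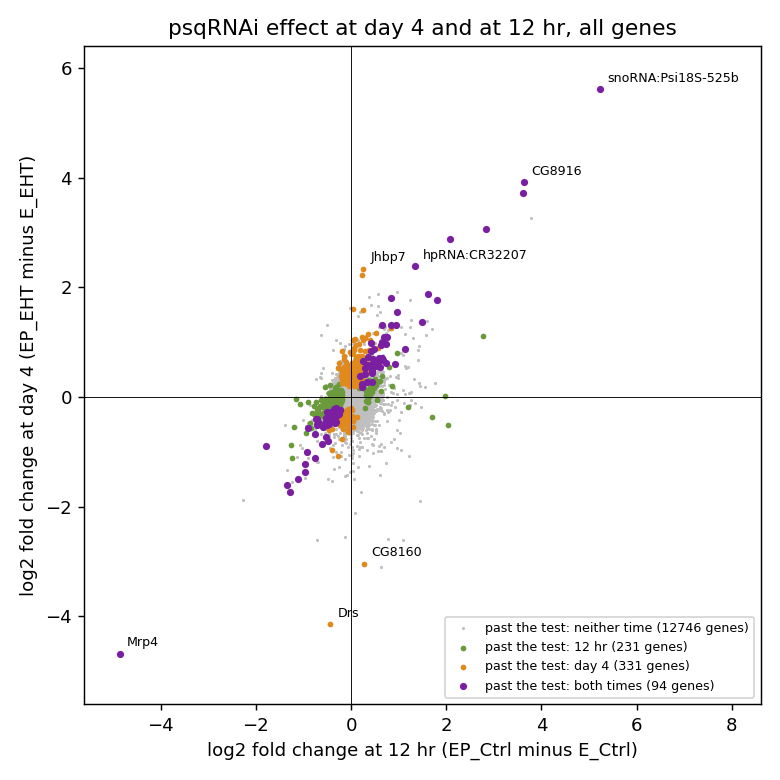
Log2 fold change with psqRNAi at day 4 (vertical) against 12 hr (horizontal) for all 13402 genes, coloured by the time at which each passed the test. The 94 genes called at both times lie in the lower left and upper right, with Mrp4 and snoRNA:Psi18S-525b farthest out; Drs and CG8160 are low at day 4 and near 0 at 12 hr.

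The number of called genes depended on single arrays. It was 1134 without EP_EHT replicate 4 (730 higher, 404 lower) and 191, 256 and 380 without EP_EHT replicates 1, 2 and 3. It was 231, 183 and 179 without E_EHT replicates 2, 3 and 4. With only the 2 groups compared in the fit, which leaves 5 residual degrees of freedom in place of 14, 64 genes passed. All 425 called genes kept their sign in each of the 7 fits without 1 array, and 123 were called in all 7. Of the 145 called genes in the named set, 83 lost the call in at least 1 of those 7 fits, namely 59, 52, 21 and 1 without EP_EHT replicates 1 to 4 and 51, 68 and 66 without E_EHT replicates 2 to 4. Among these were RpS21, Tif-IA, MRP, sinu, snoRNA:U3:9B and snRNA:U6atac. Of the same 145, 39 were called in every one of the 18 alternatives in which they could be tested, among them Mrp4, Drs, tut, ppk13, drl, krimp, CG8916, tipE, hpRNA:CR32207, mRpL28, mRpS29, Fadd and borr.

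**Figure D5:**
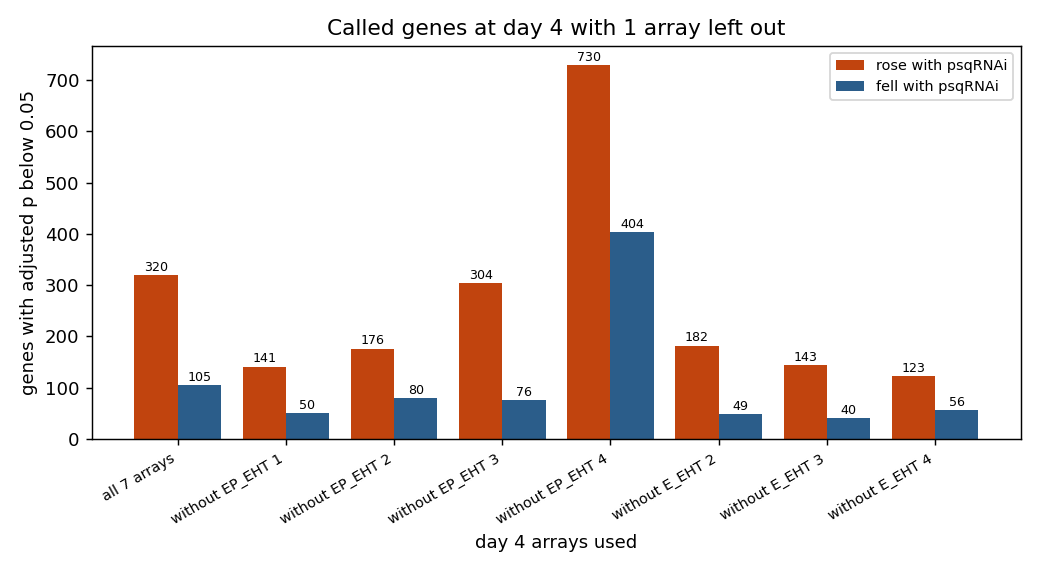
Number of genes with a limma adjusted p below 0.05 at day 4, orange for rose and blue for fell, with all 7 arrays and with each array left out. The counts run from 123 and 56 without E_EHT replicate 4 to 730 and 404 without EP_EHT replicate 4.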

How the data were processed

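Each array gives 1 log2 value per probe set, made by the authors with RMA and deposited in the series matrix; RMA and limma are named without versions, per the submitters' processing notes. Because RMA equalises the arrays' distributions, it would hide a shift shared by most genes. The sources used here do not say whether E_EHT replicate 1 was normalized with the rest. Arrays have no read depth, and the number of arrays limits the precision (median SE 0.1).

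Of 16322 probe sets, 13441 have 1 gene symbol, 555 several and 2326 none in the platform annotation. The highest of several probe sets was used for 37 genes, leaving 13402. Names, order and gene lengths came from RefSeq (Release 6 plus ISO1 MT), which 13064 probe sets matched. No genome build is named per the labels, so no coordinates are given.

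A model of 19 arrays with a mean per group was fitted (limma 3.58.1, R 4.3.3, lmFit and eBayes, 14 residual and 2.63 prior degrees of freedom). P-values are two-sided, with Benjamini-Hochberg adjustment over 13402 genes and a threshold of 0.05, and every adjusted p is from limma. Folds are back-transformed from log2 differences. P-values measure the spread between these samples. On simulated day 4 data with 200 of 13402 genes changed, 78% of 1.5-fold and 90% of 2-fold changes were recovered. Of the calls, 5.6% were false. The simulated noise was independent between genes and lacked deviations shared within an array, so these rates need not hold for the real arrays.

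The genes to describe and the 47 gene lists (719 entries, 137 not matched) were chosen with earlier results of these data known. Entries not matched were not tested, so each list result covers only the members measured. Named were psq and Egfr, up to 35 rises and 25 falls of at least 0.75 on the log2 scale whose arrays did not overlap, list members that passed, and the 4 members of every list that changed most. The snRNA and microRNA groups, spi, CG33510, Marf1 and the endoplasmic reticulum genes were chosen after their values were seen. Alternatives were E_EHT replicate 1 kept, other normalizations and variance models, 1398 dim genes (below 5) removed, other probe set rules, the replicate number as a block, fewer groups and each array left out. Same-numbered EP_EHT and E_EHT arrays had deviation correlations of 0.37, -0.288 and -0.188, and the other pairs had -0.336 to 0.37. These few values cannot tell whether the numbers pair the samples.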

Additional observations from a re-analysis of the deposited data

Results flagged for a closer look

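In 198 groups of 4 values checked, 4 had 1 array far from the other 3, and chance flags about 1 in 20 groups. FucTB, a fucosyltransferase gene, stood at 8.1 on EP_EHT replicate 2 and at 7.91 to 7.93 on the other 3 (gap over range 0.867). nclb, of the ribosome biogenesis list, stood at 10.005 on the same array against 9.72 to 9.76 (0.872), and snoRNA:Psi28S-3305c at 9.82 against 10.03 to 10.07 (0.842). The salivary gland list averaged 7.32 on EP_EHT replicate 4 against 9.97 to 10.5 on the other 3 (0.835).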

How the results depend on the processing

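The 425 genes called at day 4 (320 higher, 105 lower) became 804 (509 and 295) with array weights and 64 (47 and 17) with only the 2 groups compared, and ranged from 179 to 1134 with 1 array left out (higher 123 to 730, lower 40 to 404). The other alternatives stayed within 1.5 times. With the replicate number as a block, 357 genes were called (279 higher, 78 lower). Whether the replicate numbers pair the samples is unknown, so the block is only an alternative. The split was 398 to 71 with E_EHT replicate 1 kept. At 12 hr, 325 calls became 206 with that array kept, 873 with array weights and 153 to 512 with 1 array left out. For the difference between the times, 0 calls became 1 with that array kept, 139 with array weights, 2 with a further quantile normalization, 2 without the day 11 group, a setting chosen after seeing the data, and 0 to 345 with 1 array left out. The cause of these changes was not tested, other than the fewer arrays in the fits that leave some out. Among single genes, Egfr turned to 0.02 and Amy-p to -0.07 with E_EHT replicate 1 kept. Detection above background is not known from the deposited values, which limits genes such as snoRNA:Psi18S-525b, mir-2497 and COX4L.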

Other observations

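A group of genes of the endoplasmic reticulum membrane and of early secretion was put together after the values were seen, because some of them had passed at day 4, from symbols of the EMC complex, which inserts membrane proteins, of the Sec61 channel, of signal peptidase and of COPI vesicle coats. Of 22 measured, 9 rose (40.9%, against 2.39% of all genes) and 0 fell, with a median of 0.26. At 12 hr 1 was called, and the median was 0.02. The count of risers ran from 3 without E_EHT replicate 3 to 16 without EP_EHT replicate 4, and was 1 with only the 2 groups compared. EMC2B stood at 7.0, 7.28, 6.68 and 6.37 with psqRNAi and at 5.32, 5.59 and 4.93 without, a 2.93-fold rise (1.55 ± 0.19, limma adjusted p = 0.000117). Its neighbour and close relative EMC2A rose 1.27-fold, and cross-hybridisation between them cannot be left aside. Spase12, a signal peptidase subunit, rose 1.38-fold (0.47 ± 0.09, adjusted p = 0.0111), epsilonCOP 1.39-fold, Sec61gamma 1.35-fold and EMC7 1.3-fold. Sec61beta, deltaCOP and gammaCOP rose 1.15- to 1.21-fold. The group mean was 9.91, 9.87, 9.75 and 9.67 on EP_EHT replicates 1 to 4. It was 9.5, 9.49 and 9.48 on E_EHT replicates 2 to 4, without overlap. Because members were chosen for having passed on these same arrays, neither this gap nor the share of risers is separate support.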
